A study of Mus musculus with 12 samples.

Results

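Genes for the breakdown of glucose and for the response to low oxygen were followed in RNA of mouse rectum, across 12 libraries in 4 genotype groups. The 10 genes (Slc2a1, Hk2, Pfkl, Aldoa, Tpi1, Pgk1, Ldha, Vegfa, Adm and Bnip3) were taken by name from a table of 27785 genes, and all 10 passed the filter on low values (at least 1 FPKM in at least 2 libraries), which left 17360 genes for testing. The Lgr5-Cdx2-Apc group (n = 2) has the labelled genotype Lgr5creER;CDX2creER;APC flox, the Lgr5-Apc group (n = 4) Lgr5creER;APC flox, and the Cdx2-Apc group (n = 3) CDX2creER;APC flox. In these mice tamoxifen activates a Cre recombinase that is made where Lgr5, a marker of intestinal stem cells, or Cdx2, a gene of hindgut epithelium, is active, and Cre then removes the floxed part of Apc, a tumour suppressor gene whose product holds back Wnt signals. The control group (n = 3) is titled WT, and its genotype field reads CDX2creER;APC flox (WT), so the labels do not settle whether these mice carried Cre or floxed Apc. Intraperitoneal tamoxifen at 25 mg/kg on 5 days is in the protocol of every sample, but the controls have no treatment field, which leaves their injection unsettled too. Age is not given in the sources used here. Nothing in the labels says that the samples came from separate animals, and the p-values below therefore reflect only the variation among the samples, which may be technical.

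Glycolysis splits glucose into pyruvate in the cytosol and yields ATP without oxygen, and lactate dehydrogenase then turns pyruvate into lactate. When oxygen is scarce the hypoxia-inducible factors HIF1A and EPAS1 escape degradation, pair with ARNT and bind short DNA motifs beside their target genes. These targets include glucose carriers, most glycolytic enzymes, the angiogenic factor Vegfa, the vasodilator peptide gene Adm and the mitophagy gene Bnip3. In the gut, oxygen tension falls steeply from the base of the mucosa towards the lumen, and the epithelium next to the lumen is a well-known site of HIF activity.

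The motif that hypoxia-inducible factors are known to bind has the core ACGTG or GCGTG. The sequences below are the 250 bases before the transcript starts of Ldha (2 starts), Pgk1, Adm and Hk2 (RefSeq, GRCm38.p6, written 5′ to 3′ on the gene's strand). They are shown because these genes fell in at least 1 comparison below and the window holds no annotated exon. Capitals mark each ACGTG or GCGTG on either strand, so that CACGT and CACGC are matches on the opposite strand and CACGTG is a match on both. The windows are chr7:46845554-46845803 and chr7:46846832-46847081 (plus strand) for Ldha, chrX:106186850-106187099 (plus strand) for Pgk1, chr7:110627407-110627656 (plus strand) for Adm and chr6:82774455-82774704 (minus strand) for Hk2.
Ldha upstream start: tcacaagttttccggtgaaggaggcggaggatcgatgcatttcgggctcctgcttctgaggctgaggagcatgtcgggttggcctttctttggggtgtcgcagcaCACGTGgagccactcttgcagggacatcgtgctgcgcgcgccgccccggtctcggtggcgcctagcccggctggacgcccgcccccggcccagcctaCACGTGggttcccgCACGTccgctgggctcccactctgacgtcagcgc
Ldha downstream start: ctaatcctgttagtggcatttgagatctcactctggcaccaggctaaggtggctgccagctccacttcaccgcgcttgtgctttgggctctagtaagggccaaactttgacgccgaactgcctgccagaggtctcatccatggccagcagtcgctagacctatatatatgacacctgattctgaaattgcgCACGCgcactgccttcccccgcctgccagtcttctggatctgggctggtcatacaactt
Pgk1: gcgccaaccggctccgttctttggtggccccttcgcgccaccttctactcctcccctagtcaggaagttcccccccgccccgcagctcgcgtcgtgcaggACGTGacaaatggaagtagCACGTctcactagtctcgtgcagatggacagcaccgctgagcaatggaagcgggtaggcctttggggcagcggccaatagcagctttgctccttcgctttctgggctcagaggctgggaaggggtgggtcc
Adm: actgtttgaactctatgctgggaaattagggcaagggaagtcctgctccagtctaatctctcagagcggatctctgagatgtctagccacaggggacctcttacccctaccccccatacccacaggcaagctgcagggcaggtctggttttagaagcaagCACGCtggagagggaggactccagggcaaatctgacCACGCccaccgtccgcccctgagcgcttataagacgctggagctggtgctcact
Hk2: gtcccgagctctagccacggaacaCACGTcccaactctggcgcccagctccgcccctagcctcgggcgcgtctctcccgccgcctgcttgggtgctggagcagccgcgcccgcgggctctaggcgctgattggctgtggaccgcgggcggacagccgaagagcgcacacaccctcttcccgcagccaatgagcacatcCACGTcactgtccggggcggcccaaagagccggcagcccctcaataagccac
Of 14 windows of the 10 genes, 11 (78.6%) held a match, against 12679 of 32851 windows in the whole RefSeq table (38.6%). Counted by gene, 9 of the 10 genes (90.0%) had a match in at least 1 window, against 6487 of 11104 tested genes with a window (58.4%). Vegfa counted only through a window with 218 of its 250 bases in annotated exons, and its other window had 0 matches. The overlapping Aldoa windows hold the same CACGT, which counts in both. Windows of the 10 genes had a median GC content of 61.2%, against 58.8% for windows of the tested genes and 52.4% for all windows. The 6-base palindrome CACGTG was in 6.02% of all windows. Among the 10 genes it was found for Ldha and Bnip3, and in the upstream Ldha window it stood at -145 and -48 from the transcript start, with -1 the base just before it. Tpi1 had no match in its window. These matches describe letters in a window and show no binding.

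The genes differed widely in level. Aldoa had the highest values on the FPKM scale, which is per transcript length, at 383 to 677 FPKM, followed by Ldha at 176 to 446 FPKM and Tpi1 at 89.6 to 265 FPKM. Adm was the lowest, at 0.969 to 4.99 FPKM. Pgk1 stood at 4.31 to 17.4 FPKM, well below its neighbours in the pathway. In GENCODE M21, 4 pseudogenes share at least 95% identity with stretches that cover 68.8% of the longest Pgk1 transcript, so reads of Pgk1 may be split between copies and its level is uncertain. The same holds for Ldha (5 pseudogenes, 55.0% of the transcript), for Bnip3 (5 other genes, 94.2%) and, to a smaller extent, for Tpi1 (1 pseudogene, 19.3%) and Slc2a1 (1 other gene, 3.31%). Hk2, Pfkl, Aldoa, Vegfa and Adm had 0 such copies. Gapdh, the textbook glycolytic gene, has 81 of them and was listed at 0.138 to 1.13 FPKM in all 12 libraries, so it was too low for the filter and was not tested. Genes on the opposite strand overlap 6 of the 10 (among them Spsb2 at Tpi1 and Fam57b at Aldoa), and the strand setting of the authors' counting is not given in the sources used here.

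Total FPKM per library ran from 451297 to 728462, and 20522 to 22562 genes were above 0. Depth in reads is not given, so no counting error can be attached to these values. Short and ribosomal RNAs took 16.3% to 38.4% of the total. The labelled tissue was checked on 10 markers of columnar gut epithelium (among them Epcam, Krt20 and Slc26a3), none of which was listed at 0 in any library. Their summed level was 188 and 1068 FPKM in the Lgr5-Cdx2-Apc libraries, 1196 to 5073 in Lgr5-Apc, 5203 to 6222 in Cdx2-Apc and 3729 to 5916 in control. Libraries of the same group also differed in squamous epithelium markers, and 1 Lgr5-Apc library (replicate 2) was close to the Lgr5-Cdx2-Apc libraries in squamous epithelium and skeletal muscle markers. Lgr5-Apc replicate 3 was also near them in squamous markers, which summed to 12021 FPKM, against 13177 in Lgr5-Cdx2-Apc replicate 1. Marker levels by group are given after the results they touch.

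In Lgr5-Cdx2-Apc rectum the glycolytic genes Pfkl and Tpi1 and the hypoxia target Adm fell against each of the other groups, Ldha, Hk2 and Pgk1 fell against some of them, and Aldoa, Slc2a1, Vegfa and Bnip3 passed in none of the comparisons. The Lgr5-Cdx2-Apc and comparison libraries did not overlap, with Lgr5-Cdx2-Apc lower, for 5 of the 10 genes against control, 6 against Lgr5-Apc and 7 against Cdx2-Apc, beside 25.3%, 14.9% and 30.4% of all genes. Pfkl, Tpi1, Ldha and Adm were lower in both Lgr5-Cdx2-Apc libraries than in each of the other 10 libraries, as were 10.5% of all genes tested. Against control, 3 of the 10 genes fell (Adm, Tpi1 and Pfkl) and 0 rose, where 8.55% of all genes fell. Against Lgr5-Apc, 4 fell (Pfkl, Adm, Tpi1 and Ldha), where 3.77% of all genes fell. Against Cdx2-Apc, 6 fell (Adm, Tpi1, Pfkl, Hk2, Ldha and Pgk1), where 11.7% of all genes fell. The median log2 difference of the 10 genes was -0.47 against control, -0.76 against Lgr5-Apc and -0.70 against Cdx2-Apc, and that of all genes tested was 0.07, 0.03 and 0.04. A gene was called at a Benjamini-Hochberg adjusted p below 0.05 in a limma fit of log2(FPKM + 1) over all 12 libraries, and differences below are on that scale, which understates the change of low genes such as Adm. The 3 comparisons share the same 2 Lgr5-Cdx2-Apc libraries and are not independent of each other. In bulk tissue, fewer cells of a type and less RNA per cell cannot be told apart.

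**Figure D1:**
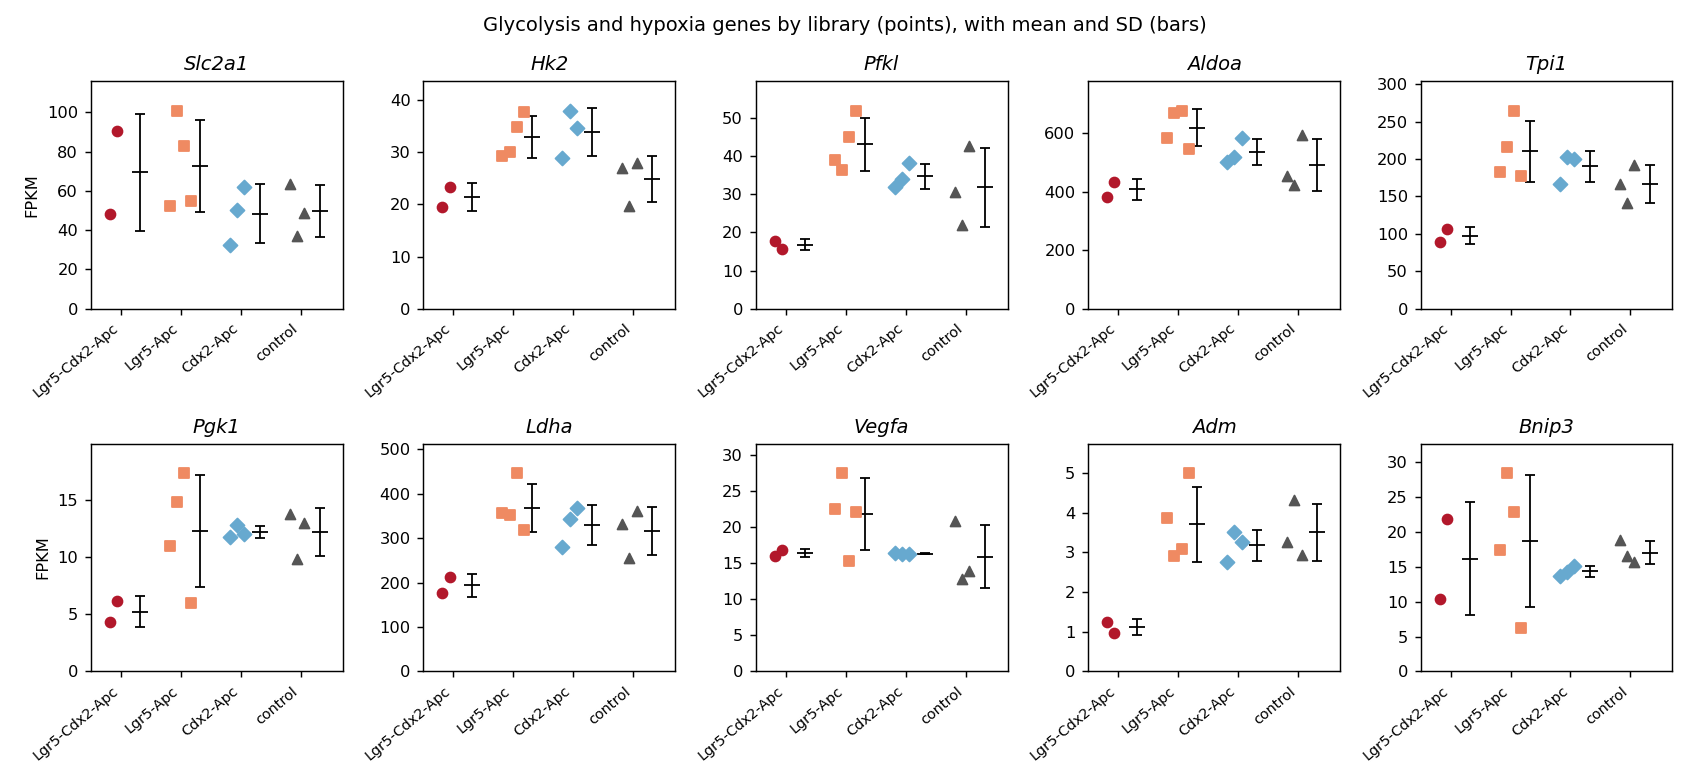
FPKM of the 10 genes in each library, by genotype group. Points are libraries, and the bars beside them show the mean and SD (n = 2, 4, 3 and 3 from left to right). For Pfkl, Tpi1, Ldha and Adm both Lgr5-Cdx2-Apc points lie below all 10 others. For Slc2a1, Vegfa and Bnip3 the Lgr5-Cdx2-Apc points overlap with those of each other group.

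Glucose enters the cell through the carrier encoded by Slc2a1 (also called GLUT1, chromosome 4, 119108711 to 119137983, plus strand, on GRCm38, as are all positions below). Its levels were 48.4 and 90.6 FPKM in the Lgr5-Cdx2-Apc libraries, 52.1, 101, 82.7 and 54.7 in Lgr5-Apc, 32.3, 50.5 and 62.0 in Cdx2-Apc, and 63.3, 37.0 and 48.9 in control. All 4 groups overlapped, and the 2 Lgr5-Cdx2-Apc libraries stood far apart. The log2 difference was 0.44 ± 0.39 against control (SE; limma adjusted p = 0.44), -0.08 ± 0.37 against Lgr5-Apc (adjusted p = 0.91) and 0.50 ± 0.39 against Cdx2-Apc (adjusted p = 0.37). Slc2a1 thus showed no difference larger than the spread, and the width of these errors leaves room for changes in either direction.

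Hexokinase 2, from Hk2 (chromosome 6, 82725025 to 82774454, minus strand), phosphorylates glucose and so traps it in the cell. Hk2 stood at 19.4 and 23.3 FPKM in Lgr5-Cdx2-Apc, 29.4, 29.96, 34.9 and 37.7 in Lgr5-Apc, 28.9, 37.9 and 34.6 in Cdx2-Apc, and 26.9, 19.8 and 27.9 in control. The Lgr5-Cdx2-Apc libraries lay below all Lgr5-Apc and Cdx2-Apc libraries and overlapped with the controls. Hk2 fell against Cdx2-Apc with a log2 difference of -0.64 ± 0.20 (SE; limma adjusted p = 0.042). Against Lgr5-Apc the difference of -0.60 ± 0.19 did not pass (adjusted p = 0.068), nor did that of -0.20 ± 0.20 against control (adjusted p = 0.48).

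Pfkl encodes the liver-type subunit of phosphofructokinase, the main control point of glycolysis (chromosome 10, 77986947 to 78010083, minus strand). It was 17.8 and 15.7 FPKM in Lgr5-Cdx2-Apc, 38.9, 36.5, 45.1 and 51.9 in Lgr5-Apc, 31.9, 34.0 and 38.3 in Cdx2-Apc, and 30.7, 22.0 and 42.7 in control. Both Lgr5-Cdx2-Apc values were below every other library, and the controls spread widely. Pfkl fell against control with a difference of -0.84 ± 0.25 (SE; limma adjusted p = 0.042), against Lgr5-Apc with -1.30 ± 0.24 (adjusted p = 0.012) and against Cdx2-Apc with -1.01 ± 0.25 (adjusted p = 0.020).

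Aldolase A, from Aldoa (chromosome 7, 126795234 to 126800751, minus strand), cleaves the phosphorylated sugar into triose phosphates. Aldoa was 383 and 434 FPKM in Lgr5-Cdx2-Apc, 585, 668, 677 and 546 in Lgr5-Apc, 502, 519 and 585 in Cdx2-Apc, and 455, 424 and 594 in control. The Lgr5-Cdx2-Apc libraries did not overlap with Lgr5-Apc or Cdx2-Apc, but 1 of them was above the lowest control. None of the differences passed: -0.25 ± 0.24 against control (SE; limma adjusted p = 0.47), -0.60 ± 0.23 against Lgr5-Apc (adjusted p = 0.12) and -0.39 ± 0.24 against Cdx2-Apc (adjusted p = 0.26).

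Triose phosphate isomerase, from Tpi1 (chromosome 6, 124810586 to 124814296, minus strand), interconverts the products of aldolase. Tpi1 was 89.6 and 106 FPKM in Lgr5-Cdx2-Apc, 183, 216, 265 and 177 in Lgr5-Apc, 167, 203 and 201 in Cdx2-Apc, and 167, 142 and 193 in control. The Lgr5-Cdx2-Apc values were the lowest of the 12. Tpi1 fell against control with a difference of -0.76 ± 0.23 (SE; limma adjusted p = 0.041), against Lgr5-Apc with -1.08 ± 0.21 (adjusted p = 0.017) and against Cdx2-Apc with -0.95 ± 0.23 (adjusted p = 0.017).

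Phosphoglycerate kinase, from Pgk1 (chromosome X, 106187100 to 106203699, plus strand), makes the earliest ATP of the pathway. Pgk1 was 4.31 and 6.201 FPKM in Lgr5-Cdx2-Apc, 10.98, 14.9, 17.4 and 6.02 in Lgr5-Apc, 11.8, 12.8 and 12.05 in Cdx2-Apc, and 13.8, 9.83 and 13.1 in control. Lgr5-Apc replicate 4 was as low as the Lgr5-Cdx2-Apc libraries, and the other 9 libraries were all higher. Pgk1 fell against Cdx2-Apc with a difference of -1.10 ± 0.35 (SE; limma adjusted p = 0.046), and nearly equal differences of -1.08 ± 0.35 against control (adjusted p = 0.053) and -1.02 ± 0.33 against Lgr5-Apc (adjusted p = 0.077) did not pass.

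Lactate dehydrogenase A, from Ldha (chromosome 7, 46841475 to 46855627, plus strand), reduces pyruvate to lactate. Ldha was 176 and 212 FPKM in Lgr5-Cdx2-Apc, 357, 352, 446 and 318 in Lgr5-Apc, 279, 343 and 368 in Cdx2-Apc, and 332, 257 and 361 in control. Both Lgr5-Cdx2-Apc values lay below all others, control replicate 2 being the nearest. Ldha fell against Lgr5-Apc with a difference of -0.92 ± 0.23 (SE; limma adjusted p = 0.037) and against Cdx2-Apc with -0.76 ± 0.24 (adjusted p = 0.045). The difference of -0.69 ± 0.24 against control did not pass (adjusted p = 0.066).

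Of the secreted signals, Adm and Vegfa behaved differently from each other. Adm, which encodes the vasodilator peptide adrenomedullin (chromosome 7, 110627661 to 110629820, plus strand), was 1.26 and 0.969 FPKM in Lgr5-Cdx2-Apc, 3.86, 2.91, 3.09 and 4.99 in Lgr5-Apc, 2.75, 3.53 and 3.25 in Cdx2-Apc, and 3.26, 4.31 and 2.93 in control. The 2 Lgr5-Cdx2-Apc values were below all others. Adm fell against control with a difference of -1.08 ± 0.23 (SE; limma adjusted p = 0.014), against Lgr5-Apc with -1.14 ± 0.22 (adjusted p = 0.014) and against Cdx2-Apc with -0.98 ± 0.23 (adjusted p = 0.016).

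Vegfa, the vascular endothelial growth factor gene (chromosome 17, 46016993 to 46032369, minus strand), was 16.0 and 16.8 FPKM in Lgr5-Cdx2-Apc, 22.5, 27.4, 15.2 and 22.0 in Lgr5-Apc, 16.4, 16.2 and 16.2 in Cdx2-Apc, and 20.9, 12.8 and 13.97 in control. The Lgr5-Cdx2-Apc and Cdx2-Apc libraries were close to each other and inside the range of the controls. Differences were 0.07 ± 0.25 against control (SE; limma adjusted p = 0.85), -0.36 ± 0.23 against Lgr5-Apc (adjusted p = 0.32) and 0.01 ± 0.25 against Cdx2-Apc (adjusted p = 0.98). The receptor genes of these 2 ligands (Calcrl, Ramp2, Ramp3, Flt1, Kdr and Nrp1) were all tested, and 0 of 6 passed the limma test in any of the 6 comparisons. At an unadjusted p under 0.05 1 was higher in Lgr5-Cdx2-Apc than in Lgr5-Apc, as were 15.5% of all genes, and 1 was higher than in Cdx2-Apc, as were 20.7%. In Lgr5-Apc 1 was lower than in Cdx2-Apc, as were 6.01% of all genes. Against control 0 were past it in Lgr5-Cdx2-Apc, Lgr5-Apc and Cdx2-Apc, beside 36.9%, 10.8% and 1.64% of all genes.

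Bnip3 encodes a protein of the outer mitochondrial membrane that marks mitochondria for removal (chromosome 7, 138890836 to 138909519, minus strand). It was 10.4 and 21.9 FPKM in Lgr5-Cdx2-Apc, 17.4, 28.4, 22.8 and 6.18 in Lgr5-Apc, 13.6, 14.2 and 15.1 in Cdx2-Apc, and 18.8, 16.6 and 15.7 in control. The values within Lgr5-Apc spread more than those between groups. Differences were -0.15 ± 0.50 against control (SE; limma adjusted p = 0.85), -0.11 ± 0.47 against Lgr5-Apc (adjusted p = 0.90) and 0.08 ± 0.50 against Cdx2-Apc (adjusted p = 0.92).

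**Figure D2:**
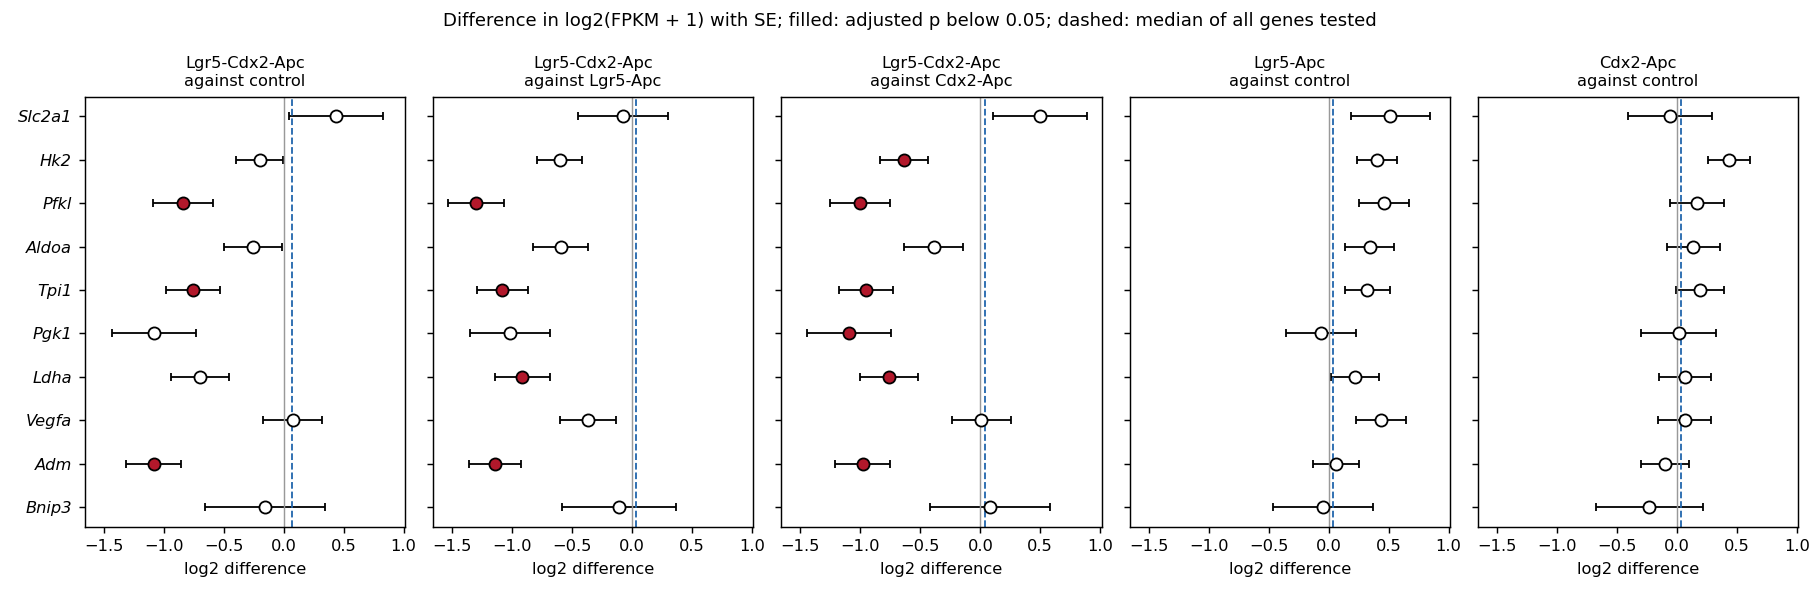
Difference in log2(FPKM + 1) of the 10 genes in 5 comparisons, with the SE of the limma fit. Filled points passed at an adjusted p below 0.05, and the dashed line is the median of all genes tested. Filled points are found only in the 3 panels of Lgr5-Cdx2-Apc, all of them below 0.

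Each called count rests on the 2 Lgr5-Cdx2-Apc libraries. With either of them left out, 0 of the 10 genes passed in any of the 3 comparisons, in a fit that assumes the lone library to vary like the others. Fewer of all genes were called lower in those fits too, so a count of 0 there does not set the 10 genes apart. Fitted on the compared groups alone, 0 passed against Lgr5-Apc, where only 10 of all 17360 genes fell. Against control 2 (Pgk1 and Adm) passed, where 1665 of all genes fell, and against Cdx2-Apc 6 did, where 2873 fell. With no filter on low values 1 (Adm) passed against control, where 1169 of 27785 genes fell. With median-of-ratios scaling or library weights 5 did, where 1688 and 2950 of 17360 genes fell. The count against control was also 1 (Adm) with any Cdx2-Apc library or control replicate 1 or 3 left out, where 353 to 1300 of all genes fell. The count against Cdx2-Apc was 0 without Cdx2-Apc replicate 2, 1 (Adm) without Cdx2-Apc replicate 3 and 3 without control replicate 3. Of all genes, 853, 964 and 1727 fell there. Scaling shifted the median of all genes against control to -0.05 under quantile normalization and to 0.12 with short RNAs removed and totals made equal, against 0.07 in the main fit. With short RNAs removed, 70.9% of all called genes were higher against control, compared with 55.2% in the main fit, and 74.6% against Lgr5-Apc, compared with 58.1%. The genes called lower among the 10 numbered 4, 4 and 6 under that scaling, where 1143, 432 and 1825 of 17166 genes fell. Aldoa and Vegfa against control, Slc2a1 against Lgr5-Apc and Vegfa against Cdx2-Apc changed sign under quantile normalization, and none of them was called.

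With a single driver, 0 of the 10 genes passed the limma test. Against control, 0.0115% of all genes passed in Lgr5-Apc. Lgr5-Apc had 8 of the 10 genes above control, as were 53.8% of all genes, with a median log2 difference of 0.33 for the 10 genes and 0.03 for all genes tested. At an unadjusted p under 0.05 stood 1 of the 10 and 10.8% of all genes. Hk2 was higher in all 4 Lgr5-Apc libraries than in the 3 controls, as were 3.96% of all genes, with a difference of 0.40 ± 0.16 (SE; adjusted p = 0.44). Pfkl differed by 0.46 ± 0.21 (adjusted p = 0.46) and its libraries overlapped with control. Cdx2-Apc had 7 of the 10 genes above control, as were 57.5% of all genes, with a median of 0.06 for the 10 genes and 0.04 for all genes, where 0.0403% of all genes passed, of which 71.4% were higher, or 83.3% with short RNAs removed. At an unadjusted p under 0.05 it was 1 of the 10 and 1.64% of all genes. Hk2 was again higher in every Cdx2-Apc library than in the controls, by 0.44 ± 0.18 (adjusted p = 1), and this was so for 5.88% of all genes. Both comparisons share the controls. Tpi1 differed by 0.19 ± 0.20 (adjusted p = 1), and Bnip3 was lower in every Cdx2-Apc library than in the controls, as were 2.7% of all genes.

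Between the single drivers, Lgr5-Apc had 8 of the 10 genes above Cdx2-Apc, as were 49.7% of all genes, with a median of 0.17 for the 10 genes and 0 for all genes. None passed, where 0.0346% of all genes did, and at an unadjusted p under 0.05 stood 0 of the 10 and 10.4% of all genes. The smallest p-values were those of Vegfa, with a difference of 0.37 ± 0.21 (SE; limma adjusted p = 0.53), and Slc2a1, with 0.57 ± 0.33 (adjusted p = 0.54). Among the group means, Lgr5-Apc was the highest for 9 of the 10 genes and Cdx2-Apc for Hk2, but for no gene did the highest group stand clear of the next. For Pgk1 the means were nearly equal, at 12.31 FPKM in Lgr5-Apc, 12.23 in Cdx2-Apc and 12.23 in control. The share of all genes with Lgr5-Apc highest was not computed.

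Several steps of glycolysis are carried out by more than 1 related gene, and the share of a gene in its family was computed from FPKM. Pfkl made up 22.6% and 20.9% of the summed Pfkl, Pfkm and Pfkp level in the Lgr5-Cdx2-Apc libraries, against 39.2% to 54.1% in Lgr5-Apc, 39.1% to 43.9% in Cdx2-Apc and 33.1% to 47.5% in control. The Lgr5-Cdx2-Apc shares were below all others, although the family sum of 75.4 to 78.8 FPKM was inside the range of the controls, 66.5 to 90.0 FPKM. Pfkm, the muscle-type subunit, was 15.3 and 17.8 FPKM in Lgr5-Cdx2-Apc, 8.61, 19.8, 8.18 and 5.75 in Lgr5-Apc, 6.15 to 8.001 in Cdx2-Apc and 5.98 to 9.37 in control. Its difference of 1.04 ± 0.39 against control did not pass (SE; limma adjusted p = 0.080). Pfkp stood at 36.7 to 45.6 FPKM in all 12 libraries.

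Lactate dehydrogenase is a tetramer of Ldha and Ldhb products, and the Ldhb form favours the use of lactate. Ldha made up 88.5% and 86.9% of the summed level in Lgr5-Cdx2-Apc, against 93.8% to 98.4% in Lgr5-Apc, 96.6% to 99.0% in Cdx2-Apc and 96.7% to 97.5% in control. Again the Lgr5-Cdx2-Apc shares were the lowest, and the next was Lgr5-Apc replicate 2. Ldhb rose in Lgr5-Cdx2-Apc against Cdx2-Apc by 1.99 ± 0.52 (SE; limma adjusted p = 0.024), at 22.8 and 32.1 FPKM in Lgr5-Cdx2-Apc and 9.73, 3.48 and 6.34 FPKM in Cdx2-Apc. It was not called against control or Lgr5-Apc, and Lgr5-Apc replicate 2, at 23.3 FPKM, lay inside the Lgr5-Cdx2-Apc range. Ldhb too has a near-identical pseudogene, over 76.8% of its transcript. The share of Hk2 among hexokinases overlapped between the groups, at 36.03% to 39.8% in Lgr5-Cdx2-Apc and 35.7% to 47.2% in Lgr5-Apc.

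**Figure D3:**
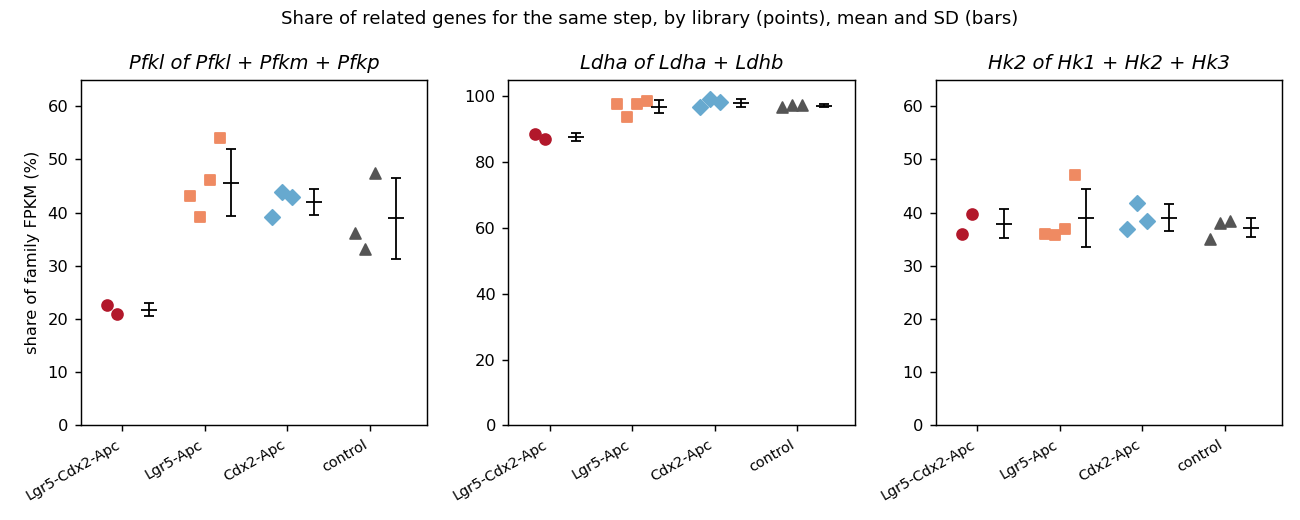
Share of Pfkl, Ldha and Hk2 in the summed FPKM of the genes for the same step, in percent by library, with mean and SD beside the points. For Pfkl and Ldha both Lgr5-Cdx2-Apc libraries lie below all 10 others, and for Hk2 the groups overlap.

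The rest of the pathway was read from a list of 23 other glycolysis genes, of which 21 were tested. In Lgr5-Cdx2-Apc, 1 rose and 3 fell against control, 0 rose and 2 fell against Lgr5-Apc, and 2 rose and 5 fell against Cdx2-Apc, beside shares of all genes rising of 10.5%, 5.22% and 12.1% and falling of 8.55%, 3.77% and 11.7%. The list's medians were -0.21, -0.33 and -0.43. Gpi1, glucose-6-phosphate isomerase, fell in all 3 comparisons. It was 51.9 and 51.5 FPKM in Lgr5-Cdx2-Apc, 102, 99.2, 120 and 121 in Lgr5-Apc, 84.7, 101 and 102 in Cdx2-Apc and 79.6, 73.7 and 99.0 in control. Its differences were -0.68 ± 0.18 against control, -1.08 ± 0.17 against Lgr5-Apc and -0.88 ± 0.18 against Cdx2-Apc (SE; limma adjusted p = 0.028, 0.0053 and 0.010). Other genes match over 55.3% of the Gpi1 transcript.

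Slc16a1, a carrier of lactate and short-chain fatty acids, was 31.96 and 28.3 FPKM in Lgr5-Cdx2-Apc, 98.7, 39.9, 117 and 68.4 in Lgr5-Apc, 90.1, 136 and 133 in Cdx2-Apc and 98.7, 107 and 118 in control. It fell against control with a difference of -1.81 ± 0.38 (SE; limma adjusted p = 0.015) and against Cdx2-Apc with -1.93 ± 0.38 (adjusted p = 0.0096), and the difference of -1.29 ± 0.36 against Lgr5-Apc did not pass (adjusted p = 0.053). Pklr, the pyruvate kinase of liver and red cells, fell with a difference of -2.34 ± 0.73 against control (adjusted p = 0.047) and with -2.70 ± 0.73 against Cdx2-Apc (adjusted p = 0.026). Eno3, the muscle-type enolase, fell against Cdx2-Apc with a difference of -2.81 ± 0.79 (adjusted p = 0.030). It was 34.6 and 29.5 FPKM in Lgr5-Cdx2-Apc, 206 to 260 in Cdx2-Apc and 104 to 132 in control. Lgr5-Apc was low as well, at 89.2, 38.5, 82.8 and 7.66 FPKM, all below the controls, and its replicate 4 was the lowest library. Eno1, the common enolase, fell against Lgr5-Apc with a difference of -1.05 ± 0.27 (adjusted p = 0.039), with copies over 85.6% of its transcript. At 24.5 and 34.1 FPKM in Lgr5-Cdx2-Apc it overlapped with control, at 31.8 to 35.5 FPKM.

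Pgam2, the muscle-type phosphoglycerate mutase, went the other way. It was 11.3 and 11.8 FPKM in Lgr5-Cdx2-Apc, 0.626, 11.5, 0.0856 and 0 in Lgr5-Apc, 0, 0 and 0.101 in Cdx2-Apc and 0, 0.183 and 0.105 in control. Its log2 difference was 3.52 ± 0.86 against control and 3.60 ± 0.86 against Cdx2-Apc (SE), while Lgr5-Apc replicate 2 matched the Lgr5-Cdx2-Apc libraries. Pgam2 reached 1 FPKM only in these 3 libraries, so it passed the filter on low values only through libraries where it is high. It was called higher in both comparisons, and was the only gene of the list to rise against control, but these calls carry no weight as tests. Skeletal muscle markers were high in the same 3 libraries. With Lgr5-Cdx2-Apc replicate 2 left out, 0 genes of the list passed in any of the 3 comparisons, and with replicate 1 left out 0 rose and 1, 2 and 4 fell.

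Among 9 genes that sense oxygen or carry its signal, 2 (22.2%) fell in each of the 3 Lgr5-Cdx2-Apc comparisons and 0 rose. Of all genes, 8.55% fell against control, 3.77% against Lgr5-Apc and 11.7% against Cdx2-Apc. The list's medians were -0.19, -0.18 and -0.34, and those of all genes 0.07, 0.03 and 0.04. Epas1, which encodes the other main HIF alpha subunit, was 15.3 and 17.9 FPKM in Lgr5-Cdx2-Apc, 30.6, 25.8, 37.0 and 35.7 in Lgr5-Apc, 42.4, 45.7 and 41.6 in Cdx2-Apc and 29.2, 26.5 and 43.6 in control. It fell with a difference of -0.93 ± 0.22 against control, -0.91 ± 0.21 against Lgr5-Apc and -1.34 ± 0.22 against Cdx2-Apc (SE; limma adjusted p = 0.021, 0.030 and 0.0053). Hif3a, a related subunit that lacks strong activating function, was 0.477 and 0.206 FPKM in Lgr5-Cdx2-Apc, 5.09, 1.57, 1.74 and 2.77 in Lgr5-Apc, 2.62, 1.55 and 2.29 in Cdx2-Apc and 2.87, 1.79 and 2.64 in control, and fell with a difference of -1.35 ± 0.35 against control (adjusted p = 0.028). Hif1a did not pass: it was 34.9 and 64.4 FPKM in Lgr5-Cdx2-Apc, 54.1, 56.0, 77.8 and 10.7 in Lgr5-Apc, 68.1, 85.4 and 77.3 in Cdx2-Apc and 75.4, 72.2 and 65.7 in control. Its lowest value was in Lgr5-Apc replicate 4, where Bnip3 and Pgk1 were also at the low end of the group, a coincidence picked out after the values were seen. HIF1A is known to be controlled mainly at the protein, which was not measured here.

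Of 19 other hypoxia targets on a list, 18 were in the table and all 18 were tested. In Lgr5-Cdx2-Apc, 2 fell against control, 1 against Lgr5-Apc and 3 against Cdx2-Apc, and 0 rose. The genes that fell were 11.1%, 5.56% and 16.7% of the list, near the shares of all genes that fell (8.55%, 3.77% and 11.7%). The list's medians, at 0.03, -0.21 and 0.15, lay to either side of 0. Bhlhe40, a transcriptional repressor, fell in all 3, at 43.1 and 42.6 FPKM in Lgr5-Cdx2-Apc, 82.3, 70.2, 91.8 and 66.9 in Lgr5-Apc, 57.8, 66.1 and 69.9 in Cdx2-Apc and 77.7, 61.4 and 66.5 in control (log2 difference against control -0.66 ± 0.18, SE; limma adjusted p = 0.031). Car9, a membrane carbonic anhydrase widely used as a hypoxia marker, was 5.21 and 1.16 FPKM in Lgr5-Cdx2-Apc, 17.5, 3.41, 15.2 and 26.7 in Lgr5-Apc, 17.5, 24.9 and 25.0 in Cdx2-Apc and 16.8, 17.1 and 22.7 in control. It fell with a difference of -2.42 ± 0.67 against control (adjusted p = 0.033) and with -2.66 ± 0.67 against Cdx2-Apc (adjusted p = 0.021), and Lgr5-Apc replicate 2 was as low as the Lgr5-Cdx2-Apc libraries. Plod2, a collagen-modifying enzyme, fell against Cdx2-Apc with a difference of -1.43 ± 0.43 (adjusted p = 0.038). With the smooth muscle, columnar epithelium or skeletal muscle score as a covariate, 0 genes of the glycolysis, regulator and target lists passed in these comparisons. Of all 17360 genes, only 0 to 19 were called lower and 0 to 138 higher in these fits.

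In the comparisons between the other groups, 0 genes of these lists passed the limma test. The lists held 21 tested glycolysis genes, 9 regulators and 18 targets. At an unadjusted p under 0.05, Lgr5-Apc against control gave 4 higher and 1 lower glycolysis genes and 2 higher regulators, beside 6.07% of all genes higher and 4.77% lower. Cdx2-Apc against control gave 1 higher target, beside 0.927% of all genes higher. Lgr5-Apc against Cdx2-Apc gave 1 higher and 2 lower glycolysis genes, 1 lower regulator and 1 higher target, beside 4.35% of all genes higher and 6.01% lower.

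**Figure D4:**
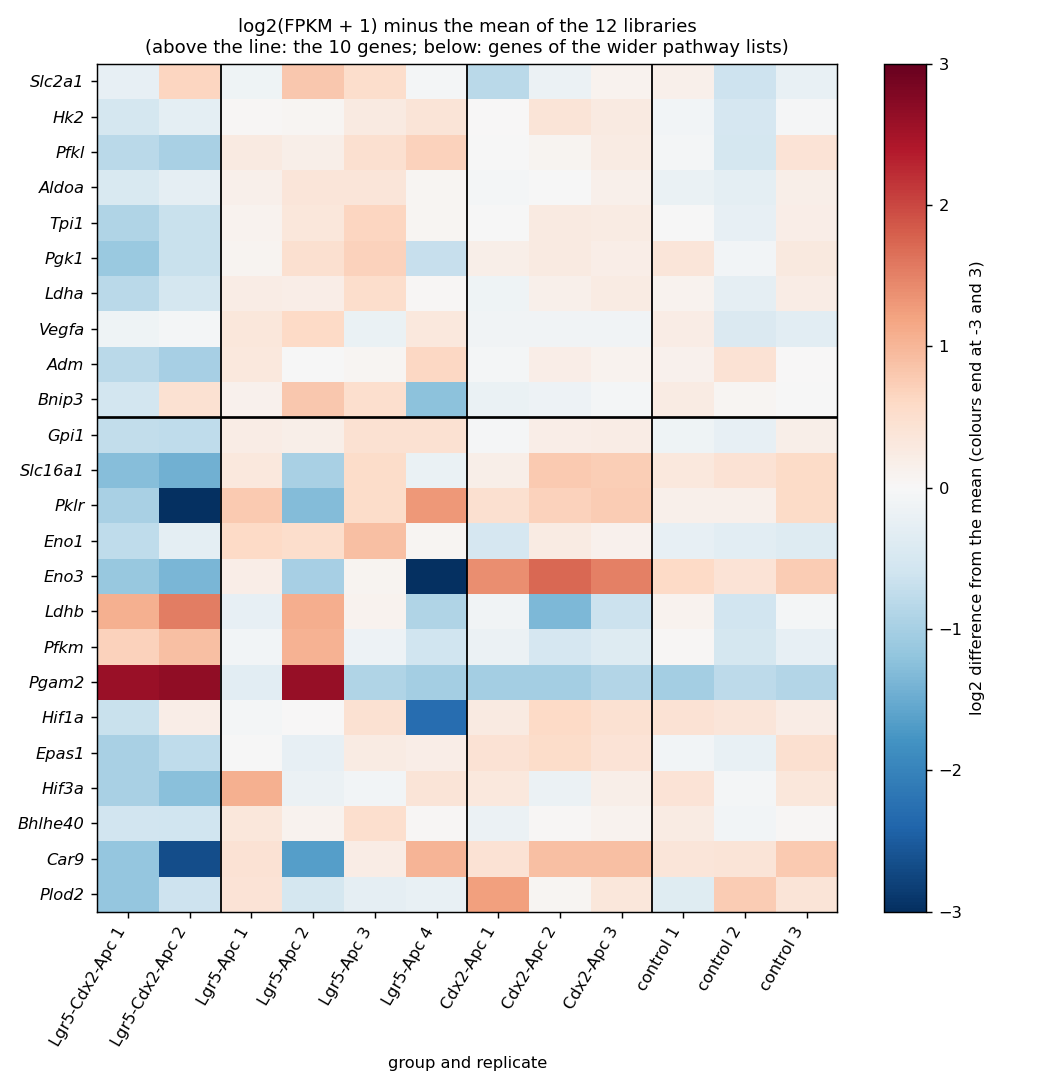
log2(FPKM + 1) of each gene minus its mean over the 12 libraries, for the 10 genes (above the horizontal line) and named genes of the wider pathway lists (below it), with colours ending at -3 and 3. Tpi1, Ldha, Pfkl, Adm, Gpi1 and Epas1 are blue in both Lgr5-Cdx2-Apc columns, and Pgam2 is red in these columns and in Lgr5-Apc 2.

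Tissue makeup moved with these results. Smooth muscle markers summed to 102 and 70.1 FPKM in the Lgr5-Cdx2-Apc libraries, against 745 to 3574 in Lgr5-Apc, 1718 to 4636 in Cdx2-Apc and 3336 to 4130 in control, and 10 of 10 fell against control. Of the 10 columnar epithelium markers summed above, 9 fell against control, 4 against Lgr5-Apc and 9 against Cdx2-Apc. None of the smooth muscle or columnar markers was listed at 0 in any library. Skeletal muscle markers summed to 502 and 598 FPKM in Lgr5-Cdx2-Apc, 7.69 to 536 in Lgr5-Apc, 5.36 to 16.0 in Cdx2-Apc and 15.1 to 27.5 in control. Of 10 tested skeletal muscle markers, 8 rose against control, and Myh4, a fast myosin, was listed at 0 in 3 of 3 Cdx2-Apc and 2 of 3 control libraries. Squamous epithelium markers summed to 13177 and 25506 FPKM in Lgr5-Cdx2-Apc, 34.7 to 21800 in Lgr5-Apc, 17.7 to 659 in Cdx2-Apc and 52.6 to 3175 in control, and 4 of 14 rose against control, while Krt2 was listed at 0 in 1 Lgr5-Apc and 2 control libraries. Neutrophil markers summed to 25.4 and 119 FPKM in Lgr5-Cdx2-Apc, 0 to 54.2 in Lgr5-Apc, 0.0764 to 2.17 in Cdx2-Apc and 0.604 to 6.32 in control, and of 3 tested 2 rose against Cdx2-Apc. All 5 neutrophil markers were listed at 0 in Lgr5-Apc replicate 4. Macrophage markers summed to 36.7 and 59.3 FPKM in Lgr5-Cdx2-Apc, 5.28 to 24.1 in Lgr5-Apc, 17.4 to 36.1 in Cdx2-Apc and 9.59 to 39.7 in control, and 2 of 6 rose against Lgr5-Apc. Fat markers summed to 98.6 and 34.3 FPKM in Lgr5-Cdx2-Apc, 5.66 to 352 in Lgr5-Apc, 3.80 to 20.7 in Cdx2-Apc and 7.17 to 59.0 in control, and 0 of 6 passed in limma in the 3 comparisons. At an unadjusted p under 0.05 it was also 0 of 6, beside 36.9%, 29.4% and 39.3% of all genes. The part of the neutrophil, macrophage and fat markers in the results was not tested. Cell cycle genes numbered 2 of 6 lower against control. Of 8 endothelial genes 0 passed in limma in the 3 comparisons. At an unadjusted p under 0.05 1 was lower against control and 1 higher against Lgr5-Apc, as were 16% and 15.5% of all genes.

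With the smooth muscle, columnar epithelium or skeletal muscle score (the mean log2(FPKM + 1) of a list) as a covariate, 0 of the 10 genes passed in any of the 3 comparisons, and the errors of the genes below were wider. Calls were rare among all 17360 genes too, so this count does not set the 10 genes apart. Against control, Lgr5-Apc and Cdx2-Apc, 0, 0 and 0 genes were called lower with the smooth muscle score. These numbers were 5, 7 and 9 with the columnar score and 2, 19 and 7 with the skeletal muscle score, compared with 1485, 654 and 2029 without a covariate. Tpi1 differed from Lgr5-Apc by -1.25 ± 0.49 with the smooth muscle score, -1.22 ± 0.33 with the columnar score and -1.13 ± 0.29 with the skeletal muscle score (SE), compared with -1.08 ± 0.21 without a covariate. Pfkl differed from Lgr5-Apc by -1.38 ± 0.56, -0.94 ± 0.35 and -1.06 ± 0.31 in the same 3 fits, compared with -1.30 ± 0.24. Against control, Tpi1 stood at -0.99 ± 0.64, -0.91 ± 0.37 and -0.83 ± 0.36, compared with -0.76 ± 0.23. Pfkl against control stood at -0.94 ± 0.72, -0.41 ± 0.39 and -0.49 ± 0.38, compared with -0.84 ± 0.25, and Adm at -1.39 ± 0.64, -0.72 ± 0.37 and -0.69 ± 0.33, compared with -1.08 ± 0.23. Skeletal muscle scores were 4.31 and 4.59 in Lgr5-Cdx2-Apc, and outside it only Lgr5-Apc replicate 2 was near them, at 4.58. The next highest was 1.89, in Lgr5-Apc replicate 1, so that fit leans on 1 library. What part tissue makeup has in the differences of these genes was not tested. With the squamous score, 1 (Pgk1) passed against control, 5 against Lgr5-Apc and 1 (Pgk1) against Cdx2-Apc, where 179, 283 and 109 of all genes were called lower. The smooth muscle scores of both Lgr5-Cdx2-Apc libraries lie below those of all others, so smooth muscle content and the Lgr5-Cdx2-Apc genotype cannot be told apart in these libraries. Columnar scores did overlap, at 6.14 in Lgr5-Apc replicate 2 and 6.27 in Lgr5-Cdx2-Apc replicate 1. Without the 3 squamous-rich libraries outside Lgr5-Cdx2-Apc (Lgr5-Apc replicates 2 and 3 and control replicate 1), 3 fell against control, 3 against Lgr5-Apc and 5 against Cdx2-Apc. Of all genes, 2095, 1964 and 2535 fell in that fit.

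**Figure D5:**
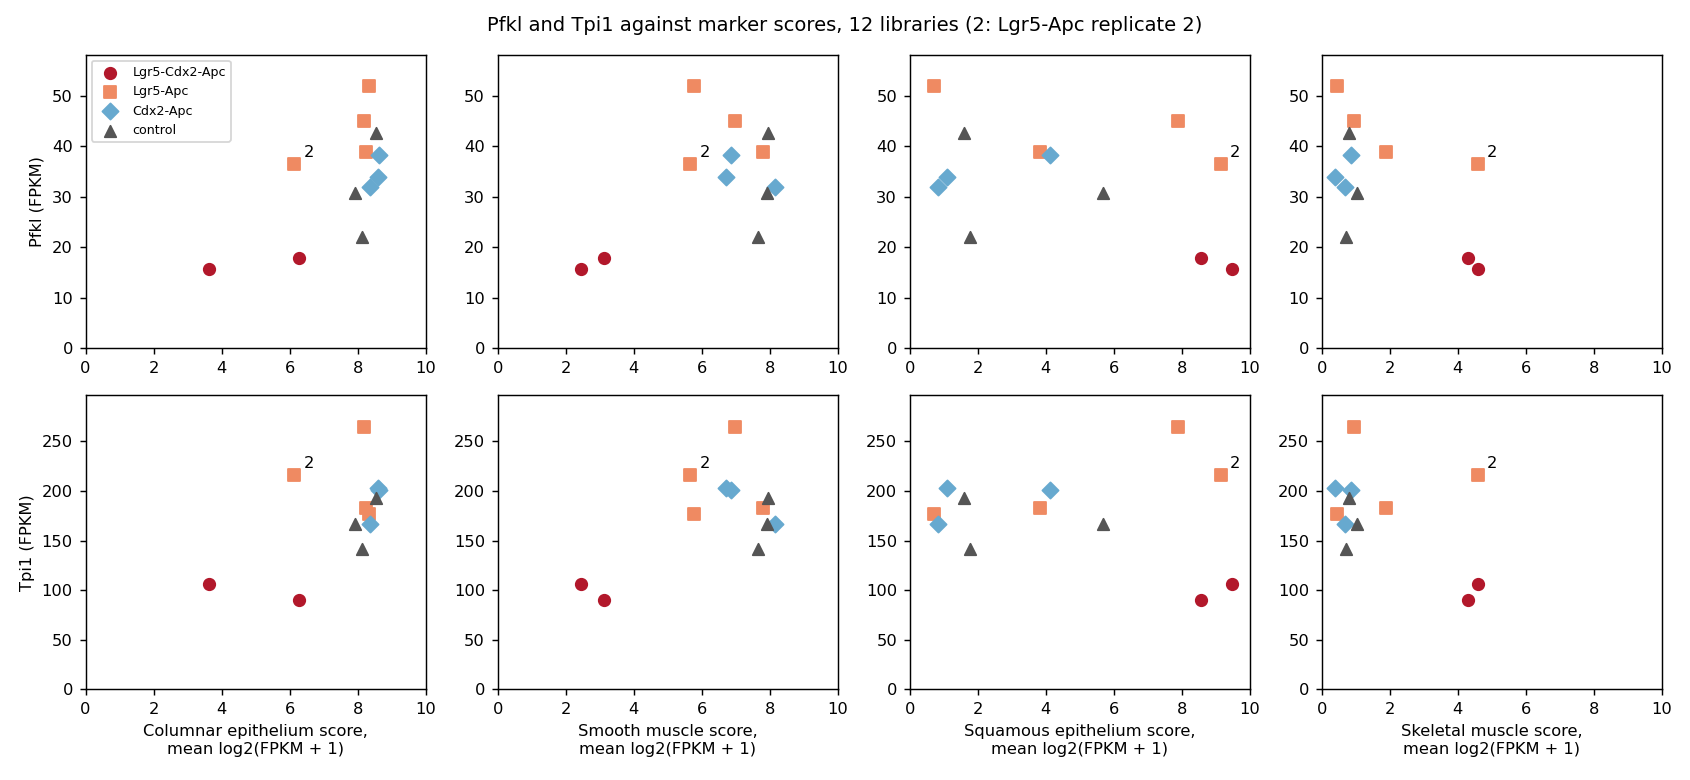
Pfkl (top) and Tpi1 (bottom) in FPKM against the mean log2(FPKM + 1) of 4 marker lists, 1 point per library. Both Lgr5-Cdx2-Apc points lie left of all others in the smooth muscle panels, and in the squamous and skeletal muscle panels Lgr5-Apc replicate 2, marked 2, has a score close to theirs.

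The 10 genes did not move as a unit. Over the 12 libraries the closest pair was Tpi1 and Ldha, whose mean-centred log2 profiles differed by a root mean square of 0.10, followed by Aldoa and Ldha at 0.18. The farthest pair was Pfkl and Bnip3, at 0.76. The profiles share libraries and any scaling error, so these are descriptions. For the 3 genes with the widest spread, the nearest profiles among 10238 other genes averaging 5 FPKM or more were sought. Pgk1 was nearest to Gm6560, Ndrg2 and Phlda1, each at 0.21. Bnip3 was nearest to Mfge8 at 0.20, Oxct1, which encodes an enzyme of ketone body use, at 0.22, and Acap2 at 0.24. Pfkl was nearest to Ltbr, the lymphotoxin beta receptor gene, at 0.14, Gpi1 at 0.15 and Gm1840 at 0.15. The 10 genes lie on 6 chromosomes, with 4 of them (Ldha, Adm, Aldoa and Bnip3) on chromosome 7.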

How the data were processed

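RNA of 12 mouse rectum samples was sequenced from NEBNext Ultra II Directional libraries, per the labels. What the authors deposited is FPKM, 1 number per gene and library. The submitters' processing notes name STAR, Cufflinks, Cuffdiff and mm10, and versions and annotation are not given in the sources used here. From 27831 lines, with 25 names turned into dates (kept unnamed) and 46 repeated symbols (reduced to the line of largest mean), 27785 genes were obtained. FPKM hides depth in reads, and a rise of abundant short RNAs lowers every other value.

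The 17360 genes that reached 1 FPKM in 2 or more libraries were fitted as log2(FPKM + 1) with limma 3.58.1 in R 4.3.3. One model had a term per group over all 12 libraries and 8 residual degrees of freedom, and variances were moderated with an intensity trend. P-values were two-sided and adjusted by Benjamini-Hochberg over all genes in each of 6 comparisons, with calls below 0.05. The procedure was tested on simulated data. Replicates of a group differed too much to be repeat deposits. Positions came from GENCODE M21, copies from BLAST 2.17.0 (at least 95% identity over at least 100 bases) and promoters from RefSeq.

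The 10 genes, the pathway and marker lists and the tests were chosen with earlier results of these data known. All 10 genes were tested against Lgr5-Cdx2-Apc, and the 2 with the smallest p are given for other comparisons. From each pathway list up to 6 called genes and up to 3 others were named, and 1 called glycolysis gene is not reported here. Nearest profiles are given for the 3 genes with the largest SD. Alternatives were a pseudocount of 0.1 FPKM, no filter, a mean of at least 5 FPKM, median-of-ratios and quantile scaling, removal of short RNAs, the compared groups alone, a replicate block, library weights, marker scores as covariates and leaving out libraries. The smooth muscle and columnar covariates and the fit without 3 squamous-rich libraries were chosen after seeing the data. Same-numbered libraries did not deviate together (15 pairs, median correlation -0.02), so the numbers were not taken as pairs.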

Additional observations from a re-analysis of the deposited data

Results flagged for a closer look

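Of 30 values checked for an outlying library within the 4 Lgr5-Apc libraries, 2 stood out, and chance alone flags about 1 in 20. The share of Hk2 in the hexokinase family was 47.2% in Lgr5-Apc replicate 4, against 35.7% to 37.0% in the other Lgr5-Apc libraries. Pgam2 was 11.5 FPKM in Lgr5-Apc replicate 2, against 0 to 0.626 FPKM in the other Lgr5-Apc libraries, and that library also had a skeletal muscle score of 4.58, against 0.452 to 1.89 in the others. The part of the muscle markers in the Pgam2 value was not tested.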

How the results depend on the processing

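Of the 10 genes, 3, 4 and 6 were called in Lgr5-Cdx2-Apc against control, Lgr5-Apc and Cdx2-Apc, all lower. Leaving out 1 library of another group at a time gave 1 to 4, 3 to 5 and 0 to 6. Of all 17360 genes, 353 to 2062, 137 to 2060 and 853 to 2628 fell in these fits. Fits without a Lgr5-Cdx2-Apc library are described above. Against control the count was 1 with no filter, 5 with median-of-ratios scaling, 5 with library weights and 1 with the squamous score. Of all genes, 1169, 1688, 2950 and 179 fell in these fits. Against Lgr5-Apc it was 0 with the compared groups alone, where 10 of all genes fell, and against Cdx2-Apc 1 with the squamous score, where 109 fell. With the skeletal muscle, smooth muscle or columnar epithelium score it was 0 in all 3, with wider errors, where at most 19 of all 17360 genes were called lower. In these fits Tpi1 differed from Lgr5-Apc by -1.13, -1.25 and -1.22 and Pfkl by -1.06, -1.38 and -0.94. Causes of these changes were not tested, except that fits without a library or on the compared groups alone hold fewer samples. The other 3 comparisons gave 0 in every fit. The replicate block gave 4, 3 and 4 calls, where 1544, 240 and 2236 of all 17360 genes fell. The numbers do not pair the libraries, however (5 of 15 pairs had a correlation over 0.1).

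Single differences were recomputed 969 times for 36 results: 771 kept their direction and call, 132 lost the call, 23 gained a call and 43 changed sign, all of them in results that were not called. Signs held in all fits listed for 26 results. Against control the log2 difference was 0.062 for Aldoa and -0.033 for Vegfa with quantile normalization, and -0.025 for Vegfa with the replicate block. With the skeletal muscle score it was 0.025 for Hk2, -0.25 for Slc2a1 and -0.42 for Vegfa, and with the squamous score -0.34 for Slc2a1 and -0.067 for Vegfa. With the smooth muscle score it was 0.064 for Bnip3, -1.17 for Slc2a1 and -0.35 for Vegfa, and with the columnar score -0.59 for Slc2a1 and -0.35 for Vegfa. Leaving out 1 library gave -0.65 to 0.35 for Bnip3, -0.0060 to 0.89 for Slc2a1 and -0.057 to 0.28 for Vegfa. Against Lgr5-Apc, Slc2a1 was 0.18 with quantile normalization, and without Lgr5-Apc replicates 2 and 3 it was 0.31 and Bnip3 0.49, as without the 3 squamous-rich libraries. With the smooth muscle score Bnip3 was 0.054. Leaving out 1 library gave -0.61 to 0.39 for Bnip3 and -0.52 to 0.37 for Slc2a1. Against Cdx2-Apc, Vegfa was -0.031 with quantile normalization and -0.089 with the replicate block. With the skeletal muscle score the differences were -1.25 for Bnip3, -0.23 for Slc2a1 and -0.52 for Vegfa, and with the squamous score -1.16, -0.41 and -0.16. With the columnar score they were -1.48, -0.64 and -0.46, and with the smooth muscle score -0.92 for Slc2a1 and -0.36 for Vegfa. Leaving out 1 library gave -0.42 to 0.58 for Bnip3 and -0.023 to 0.042 for Vegfa.

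Read depth is unknown, so whether low genes such as Adm and Pgam2 rest on few reads could not be seen. The controls' genotype and treatment are not settled by the labels, and 2 Lgr5-Cdx2-Apc libraries carry every call.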
